A study of Mus musculus with 16 samples.

Results

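The epidermal growth factor (EGF) family was followed through 9 genes in sorted mouse liver cells, 6 ligand genes (Nrg1, Areg, Ereg, Hbegf, Tgfa and Btc) and 3 genes of the ErbB receptors (Egfr, Erbb2 and Erbb3), out of 48795 gene identifiers in the table of read counts. The members were taken by gene symbol, and each matched 1 identifier. They were selected on the levels of these genes in all 16 libraries and on the genotype ratio of Nrg1 in the DBA-sorted libraries, so that ratio is given as a description with no test. The cells came from livers of mice aged 4 weeks, of the strains BALB/c and C57BL/6, that were either Ift88Orpk (Orpk, a reduced-function allele of Ift88, whose protein carries cargo along cilia) or wild type (WT). Each strain and genotype gave 4 populations: cells sorted with the lectin Dolichos biflorus agglutinin (DBA) and labelled cholangiocytes, neutrophils, and infiltrating macrophages that were high (Ly6Chi) or low (Ly6Clo) for the surface antigen Ly6C. Each of the 16 groups was 1 library of RNA pooled from 6 to 8 mice, with no second pool. A population was therefore tested with the 4 strain and genotype combinations as its replicates, and a genotype with the strains or the leukocyte populations as its replicates. The p-values measure the spread between the libraries that served as replicates, and not between repeated pools of 1 group. Libraries of the same strain and genotype may hold RNA of the same mice.

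EGF family ligands are made as membrane-anchored precursors that sheddases of the Adam family release, and they bind receptor tyrosine kinases that work in pairs. Egfr binds amphiregulin (Areg), epiregulin (Ereg), heparin-binding EGF (Hbegf), transforming growth factor alpha (Tgfa) and betacellulin (Btc), whereas neuregulin 1 (Nrg1) binds Erbb3 and Erbb4. Erbb2 has no known ligand of its own and serves as the partner of the other receptors, and Erbb3 has little kinase activity and signals through its partner. In liver, Egfr is abundant in hepatocytes, and its ligands are known for their part in regeneration and in the growth of bile duct cells.

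The libraries held 10170795 to 26093556 reads in genes, and levels are given as CPM, the read counts scaled to a common library total with trimmed mean of M values (TMM) factors. A count of 0 allows up to 3 counts, which is 0.0926 to 0.377 CPM depending on the library, and this floor and the intervals below cover counting error only. Ift88 had 3.82 to 8.81 CPM in the 8 Orpk libraries and 1.43 to 8.86 CPM in the 8 WT libraries, and was lower in Orpk in 2 of 8 pairs, both DBA-sorted. Its level did not separate the genotypes. In the DBA-sorted libraries, 10 markers of liver sinusoidal endothelium summed to 13640 to 20805 CPM and 10 cholangiocyte markers to 250.5 to 616.5 CPM, and every marker of both lists was counted, so these cells are called DBA-sorted and not cholangiocytes here. The 11 neutrophil markers summed to 19800 to 30583 CPM in the neutrophil libraries and at most 1842 CPM elsewhere. The 7 Ly6Chi monocyte markers summed to 3920 to 5437 CPM in Ly6Chi and 896.1 to 1618 CPM in Ly6Clo macrophages. The 7 markers of Ly6Clo monocytes did not separate the macrophages (2845 to 3892 CPM in Ly6Chi, 2514 to 4132 CPM in Ly6Clo). In neutrophils the Ly6Chi monocyte markers summed to 1613 to 3791 CPM and the Ly6Clo monocyte markers to 3524 to 6343 CPM. The 12 leukocyte libraries carried 7.52 to 82.2 CPM of the cholangiocyte markers, 132.8 to 2955 CPM of the endothelial markers and 459.6 to 5058 CPM of 10 hepatocyte markers. In sorted bulk RNA, fewer cells of a type and less RNA per cell cannot be told apart.

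Erbb2 was the most abundant family transcript in DBA-sorted cells. Per kilobase of exon, Erbb2 stood at 13.9 ± 2.2 CPM per kb in DBA-sorted cells (SD, n = 4), and its 4 libraries (11.2 to 15.8) lay above all those of the next gene, Hbegf (6.32 to 9.07). Hbegf at 7.36 ± 1.27, Erbb3 at 7.2 ± 2.82 and Tgfa at 6.0 ± 1.12 CPM per kb followed, and these neighbours did not differ beyond their spread. Egfr at 2.78 ± 0.767 and Nrg1 at 1.94 ± 2.2 CPM per kb came next, and Btc at 0.726 ± 0.302, Ereg at 0.465 ± 0.748 and Areg at 0.162 ± 0.187 CPM per kb were the least abundant members.

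The order was different in the leukocytes, where no member's mean reached the means of Erbb2, Erbb3, Hbegf or Tgfa in DBA-sorted cells. Erbb3 led in both macrophage populations, at 1.99 ± 0.313 CPM per kb in Ly6Chi and 1.72 ± 0.599 CPM per kb in Ly6Clo macrophages, followed in Ly6Chi macrophages by Nrg1 at 1.77 ± 1.15 CPM per kb, which overlapped it. In neutrophils Areg had the highest mean, 2.54 ± 3.14 CPM per kb, from the Orpk libraries alone, ahead of Egfr at 1.71 ± 1.45, Erbb3 at 1.65 ± 0.65 and Hbegf at 1.41 ± 0.326 CPM per kb. The neutrophil means did not differ beyond their spread.

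**Figure D1:**
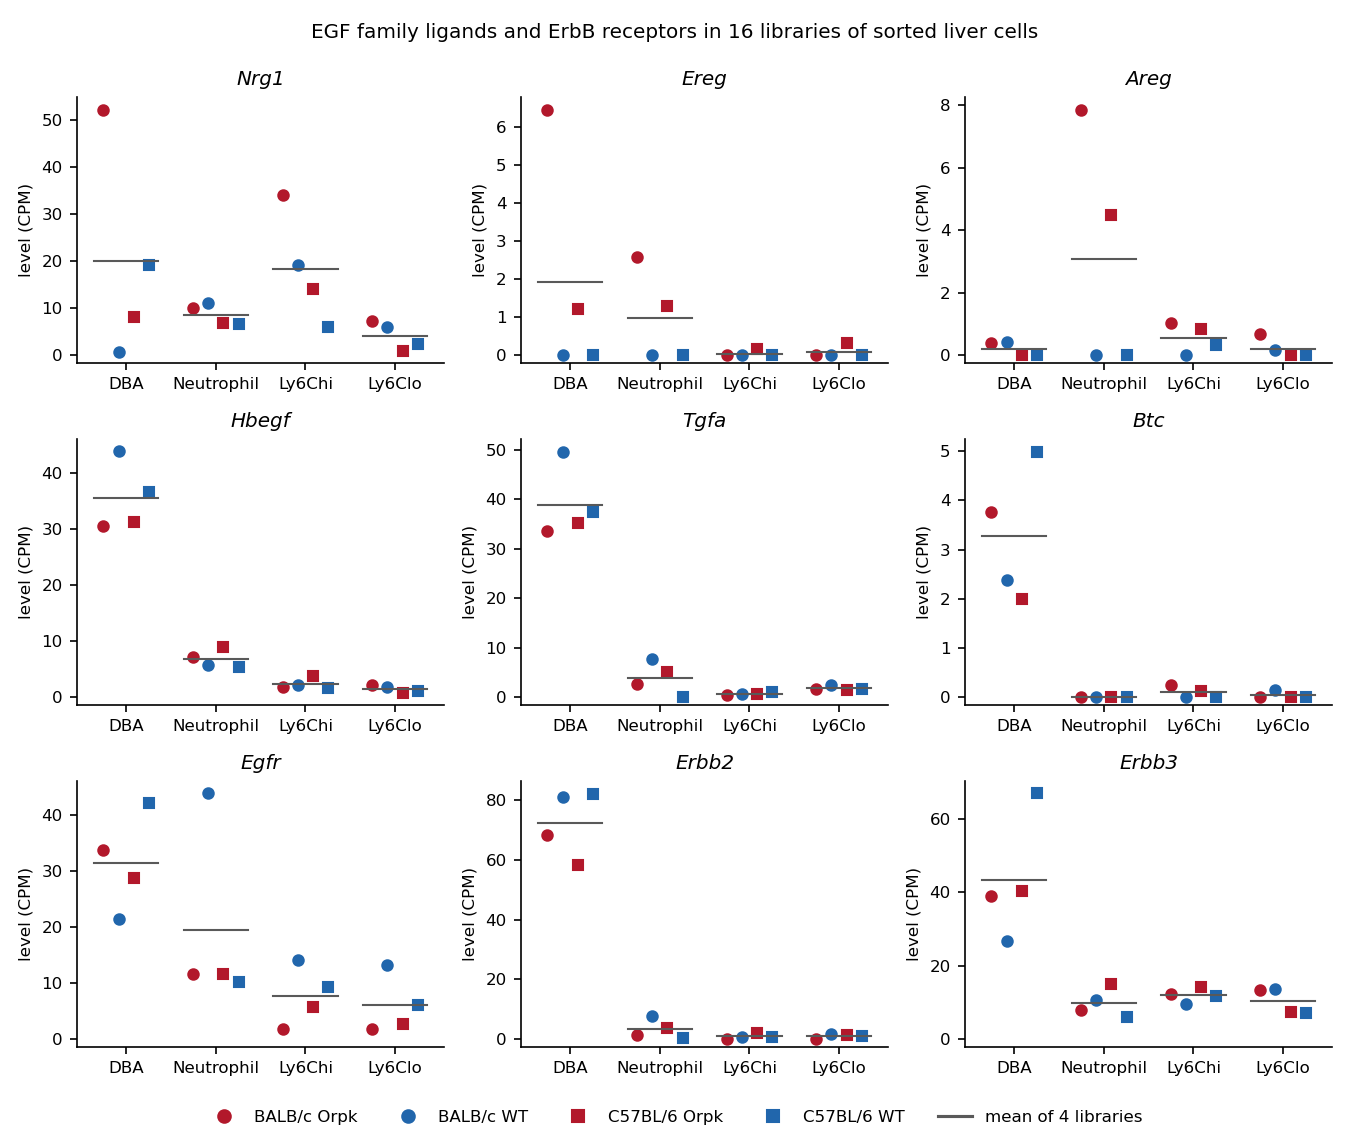
Level (CPM, y axis) of each of the 9 genes in the 16 libraries, by population (x axis), with Orpk in red, WT in blue, BALB/c as circles, C57BL/6 as squares and a line at the mean of the 4 libraries. Hbegf, Tgfa, Btc, Erbb2 and Erbb3 are higher in every DBA-sorted library than in every leukocyte library, while Nrg1 in the BALB/c pair of DBA-sorted cells spans 52.3 CPM in Orpk and 0.76 CPM in WT.

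Hbegf, Tgfa, Erbb2 and Erbb3 were higher in DBA-sorted cells than in each of the 3 leukocyte populations, and Egfr was higher than in the macrophages. Against Ly6Chi macrophages 5 members besides Nrg1 and Btc passed the filter on low counts and 5 of 5 passed edgeR's quasi-likelihood test at an adjusted p (Benjamini-Hochberg) under 0.05, all higher in DBA-sorted cells, where 51.4% of 17095 genes passed, 27.5% higher and 23.9% lower. Against Ly6Clo macrophages 5 of 5 such members were higher, with 46.7% of 17724 genes passing, 24.8% higher and 21.8% lower. Against neutrophils 4 of 6 were higher, with 54.0% of 17045 genes passing, 27.9% higher and 26.0% lower. Nrg1 is given without a test, since its DBA-sorted values chose it, Btc because its leukocyte counts were 0 to 7 per population, Areg was tested in none of them, and Ereg was tested against neutrophils only. Egfr did not pass against neutrophils. In these comparisons a member that is low in the leukocyte population could pass the filter only through the DBA-sorted libraries. These counts therefore describe the members and support nothing.

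**Figure D2:**
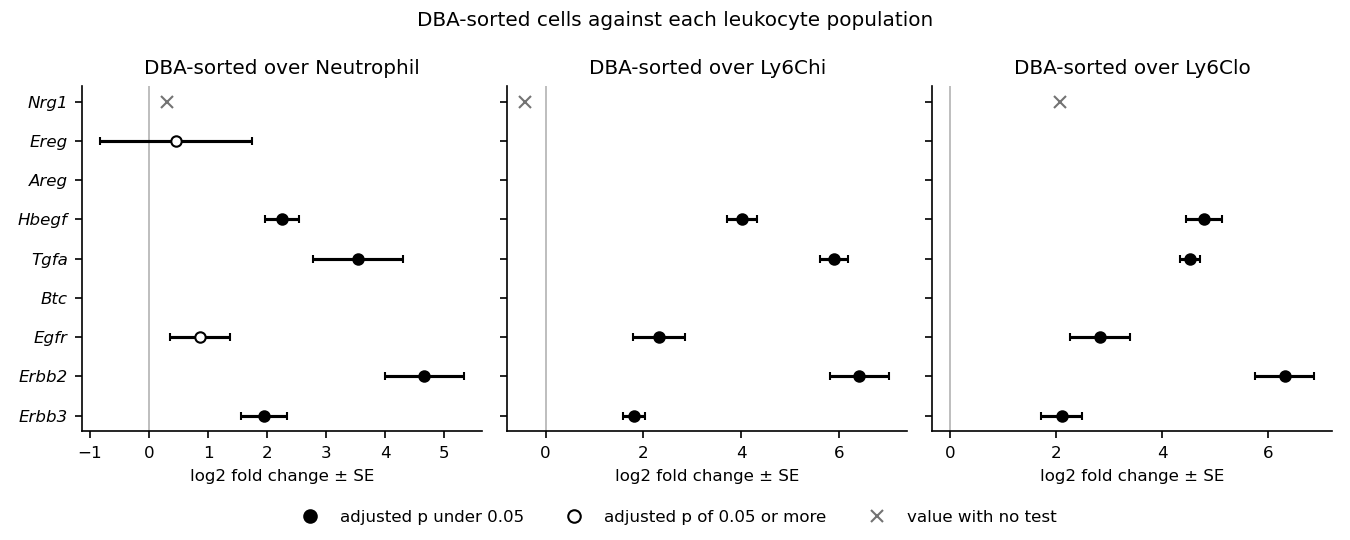
Log2 fold change ± SE of each tested member (x axis) in DBA-sorted cells over neutrophils, Ly6Chi and Ly6Clo macrophages, with filled points at an adjusted p under 0.05 and crosses for Nrg1, which was not tested. Erbb2 lies at 4.66, 6.41 and 6.31, and Nrg1 lies at 0.30, -0.41 and 2.07; Btc, with 0 to 7 counts in each leukocyte population, is not drawn, and Areg was not tested.

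Nrg1 (GRCm38, as for all positions here, chromosome 8, 31814551 to 32884029, minus strand), the neuregulin that binds Erbb3 and Erbb4, was the member whose genotype ratio differed most between the strains in DBA-sorted cells. Nrg1 had 1099 counts (52.3 CPM) in BALB/c Orpk DBA-sorted cells, against 15 counts (0.76 CPM) in BALB/c WT. It had 189 counts (8.21 CPM) in C57BL/6 Orpk DBA-sorted cells, against 308 counts (19.2 CPM) in C57BL/6 WT. The BALB/c ratio of Orpk over WT was 68.7 (95% counting interval 41.5 to 123.3) and the C57BL/6 ratio was 0.427 (0.354 to 0.514), so the high library was Orpk in BALB/c and WT in C57BL/6. With a pseudocount of 1 CPM the log2 ratios were 4.92 in BALB/c and -1.13 in C57BL/6. Each ratio compares 2 libraries, and it has no replicate.

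Other measures of the same 4 libraries differed as well. In BALB/c, 10 stellate cell and fibroblast markers summed to 9688 CPM in Orpk and 1865 CPM in WT DBA-sorted cells, 11 neutrophil markers to 198.3 CPM in Orpk and 8.36 CPM in WT, and 7 markers of Ly6Chi monocytes to 486.9 CPM in Orpk and 66.8 CPM in WT. In C57BL/6, the same lists gave 4212 CPM in Orpk and 2085 CPM in WT for stellate cells, 15.7 CPM in Orpk and 24.0 CPM in WT for neutrophils, and 115.4 CPM in Orpk and 121.3 CPM in WT for Ly6Chi monocytes. The stellate sums were higher in Orpk in both strains, and the monocyte sums were higher in Orpk in BALB/c and nearly equal in C57BL/6. The neutrophil sums, like Nrg1, were higher in Orpk in BALB/c and lower in C57BL/6. The cholangiocyte sums also had this pattern, with 448.0 CPM in Orpk and 250.5 CPM in WT of BALB/c, and 339.9 CPM in Orpk and 616.5 CPM in WT of C57BL/6. Markers of Schwann cells, a known source of Nrg1, summed to 0.25 to 0.811 CPM in the 4 libraries, with Cdh19 and Foxd3 at 0. The share of counts from mitochondrial genes followed the Nrg1 order too, at 12.4% in Orpk and 5.39% in WT of BALB/c, and 8.26% in Orpk and 14.75% in WT of C57BL/6. Endothelial sums ran the other way, at 13640 CPM in Orpk and 20805 CPM in WT of BALB/c, and 20265 CPM in Orpk and 18692 CPM in WT of C57BL/6. The part of these sums and shares in the Nrg1 ratio was not tested.

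The leukocyte pairs gave smaller Nrg1 ratios. In Ly6Chi macrophages Nrg1 had 34.1 CPM in BALB/c Orpk against 19.2 CPM in BALB/c WT, and 14.1 CPM in C57BL/6 Orpk against 5.88 CPM in C57BL/6 WT, so it was higher in Orpk in both strains, with ratios of 1.77 (1.55 to 2.03) and 2.41 (1.86 to 3.16). In Ly6Clo macrophages it had 7.19 CPM in BALB/c Orpk against 6.01 CPM in BALB/c WT, and 0.926 CPM in C57BL/6 Orpk against 2.36 CPM in C57BL/6 WT. In neutrophils it had 10.1 CPM in BALB/c Orpk against 11.1 CPM in BALB/c WT, and 6.73 CPM in C57BL/6 Orpk against 6.65 CPM in C57BL/6 WT. The 95% counting intervals included 1 in both neutrophil pairs and in the BALB/c Ly6Clo pair, and the C57BL/6 Ly6Clo ratio was 0.392 (0.238 to 0.64). Over the 3 leukocyte populations, edgeR gave a log2 fold change of Orpk over WT of 0.29 ± 0.41 (SE, adjusted p = 0.82) in BALB/c and 0.08 ± 0.453 (adjusted p = 1.0) in C57BL/6, and a difference between strains of 0.21 ± 0.603 (adjusted p = 0.952). The C57BL/6 value was -0.6 without the Ly6Chi pair (adjusted p = 1.0), and the difference was -0.38 without the Ly6Clo pairs (adjusted p = 0.909).

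**Figure D3:**
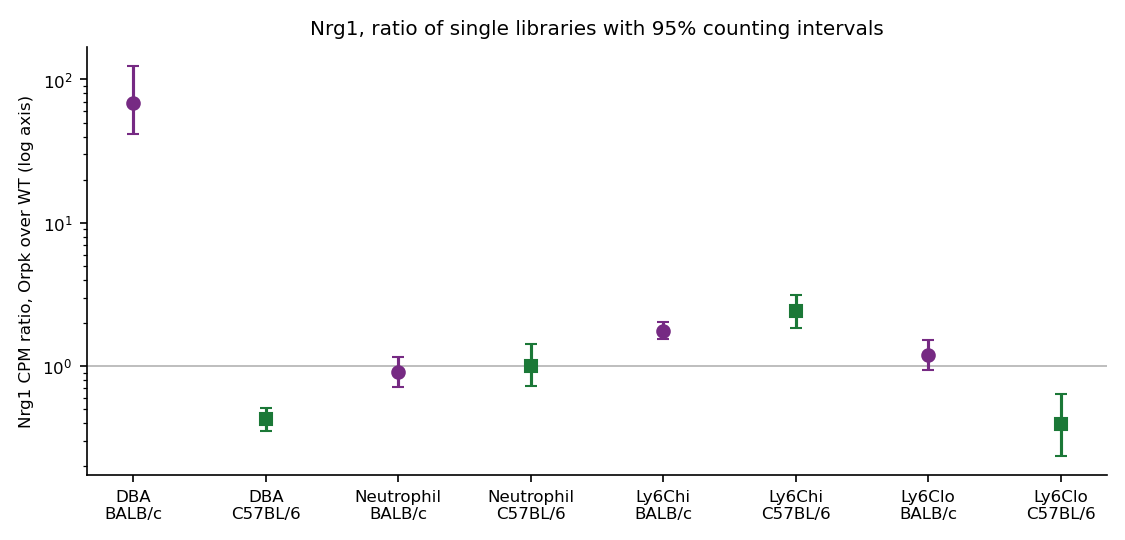
Ratio of Nrg1 CPM in Orpk over WT (y axis, log scale) in the 8 pairs of single libraries, by population and strain (x axis), with 95% counting intervals. The BALB/c DBA-sorted pair lies at 68.7, and the other 7 pairs lie between 0.392 and 2.41.

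Nrg1 had its highest leukocyte mean in Ly6Chi macrophages, although in C57BL/6 WT it had 6.65 CPM in neutrophils against 5.88 CPM in Ly6Chi macrophages. It averaged 18.3 ± 11.9 CPM in Ly6Chi and 4.12 ± 2.96 CPM in Ly6Clo macrophages (SD, n = 4 each), with a log2 fold change of 2.25 ± 0.377 (SE, edgeR adjusted p = 0.00318), and was the only 1 of 6 tested members to pass, where 24.5% of 16664 genes passed. The Ly6Chi library was the higher in each of the 4 strain and genotype pairs, although 5.88 CPM in the lowest Ly6Chi library was below 7.19 CPM in the highest Ly6Clo library. Without the strain and genotype block the adjusted p was 0.0782, and in a fit of all 16 libraries it was 0.09. Nrg1 averaged 8.62 ± 2.27 CPM in neutrophils, which was above Ly6Clo macrophages by a log2 fold change of 1.39 ± 0.442 (adjusted p = 0.0287) and set against Ly6Chi macrophages gave -0.88 ± 0.332 (adjusted p = 0.0572). The neutrophil call against Ly6Clo macrophages was lost without the C57BL/6 Orpk pair (adjusted p = 0.0913), without the C57BL/6 WT pair (0.0677), without the block (0.142) and in the fit of 16 libraries (0.149). Without the C57BL/6 WT pair, the value against Ly6Chi macrophages was -1.21 ± 0.31 (adjusted p = 0.0152).

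The 5 genes whose level followed Nrg1 most closely over the 16 libraries, of 12796 genes ranked by Pearson's r of log2(CPM + 1), were Esr1 (r = 0.833), which encodes estrogen receptor alpha, Gpx3 (0.777), a secreted glutathione peroxidase, Trpv4 (0.746), a cation channel, Med25 (0.718), a Mediator subunit, and Rnf214 (0.711), a RING finger protein. The 16 points include the DBA-sorted libraries by which Nrg1 was chosen and share their populations, so the coefficients are a description. Esr1 had 15.6 CPM in Orpk and 3.75 CPM in WT of the BALB/c DBA-sorted cells, and 7.86 CPM in Orpk and 12.2 CPM in WT of C57BL/6. Gpx3 had 50.9 CPM in Orpk and 6.54 CPM in WT of the BALB/c DBA-sorted cells, and 7.99 CPM in Orpk and 15.3 CPM in WT of C57BL/6. Both thus had their high library in Orpk for BALB/c and in WT for C57BL/6, as Nrg1 did. Nrg1 shares 482 exon bases with Gm26578, a long noncoding gene on the other strand, and the strand setting of the counting is not given in the sources used here.

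Epiregulin and amphiregulin were counted mainly or only in Orpk libraries. Ereg (chromosome 5, 91074622 to 91093646, plus strand) had 136 counts (6.47 CPM) in BALB/c Orpk DBA-sorted cells and 28 counts (1.22 CPM) in C57BL/6 Orpk DBA-sorted cells, against 0 counts in both WT libraries. In neutrophils it had 27 counts (2.59 CPM) in BALB/c Orpk and 21 counts (1.29 CPM) in C57BL/6 Orpk, against 0 counts in both WT libraries. In macrophages it had 4 counts in C57BL/6 Orpk Ly6Chi and 10 counts in C57BL/6 Orpk Ly6Clo cells, and 0 counts in the other 6 libraries. Ereg was thus counted in 6 of 8 Orpk libraries, with 226 counts in all, and in none of the 8 WT libraries, and no WT library lay above an Orpk library in any of the 8 pairs. The Orpk libraries were deeper as a set, with TMM-scaled totals of 166462795 against 130792619 in WT. The share of all genes counted in Orpk libraries alone was not determined, here and for Areg and Epgn below. Set against a floor of 3 counts over the WT group, Ereg was 59.2-fold higher in Orpk over the 16 libraries, 44.4-fold higher in DBA-sorted cells and 15.5-fold higher in neutrophils. The BALB/c Orpk DBA-sorted library gave 136 of the 226 counts, and without that BALB/c pair the bounds were 22.9-fold over the remaining libraries and 6.5-fold in DBA-sorted cells. In neutrophils the bound was 3.41-fold without the BALB/c pair.

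These counts did not pass the test across all genes. Of 19183 genes tested, edgeR called 0% in DBA-sorted cells, with 1153 genes at an unadjusted p under 0.05, and 0% in neutrophils, with 965 genes, and DESeq2 called 81 and 18 genes and no member. For Ereg the unadjusted p was 0.0237 in DBA-sorted cells (adjusted p = 0.767) and 0.0352 in neutrophils (adjusted p = 0.915), and 0.0126 (adjusted p = 0.523) for the mean of the 4 genotype terms, a contrast added after the data were seen, in which 0% of genes were called. With 0 counts in the WT libraries, Ereg could pass the filter on low counts only through Orpk libraries, so these p-values describe it and support nothing. Neutrophil markers in BALB/c DBA-sorted cells (198.3 CPM in Orpk, 8.36 CPM in WT) moved with Ereg in that strain and not in C57BL/6 (15.7 CPM in Orpk, 24.0 CPM in WT), and their part was not tested. Ereg overlaps Gm19610 on the other strand by 141 exon bases.

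Areg (chromosome 5, 91139599 to 91148432, plus strand), which binds Egfr with low affinity and is made by several leukocytes, had 82 counts (7.85 CPM) in BALB/c Orpk neutrophils and 73 counts (4.47 CPM) in C57BL/6 Orpk neutrophils, against 0 counts in both WT libraries. In Ly6Chi macrophages it had 16 counts (1.02 CPM) in BALB/c Orpk and 20 counts (0.822 CPM) in C57BL/6 Orpk, against 0 and 4 counts (0.336 CPM) in the WT libraries of those strains. In Ly6Clo macrophages it had 16 counts in BALB/c Orpk against 3 counts in BALB/c WT, and 0 counts in both C57BL/6 libraries. The Orpk library was the higher in 5 of 6 leukocyte pairs and equal in the other. In DBA-sorted cells Areg had 8 counts in each BALB/c library and 0 counts in both C57BL/6 libraries, so the counts were equal in Orpk and WT. In neutrophils Areg was at least 50.1-fold higher in Orpk (at least 11.9-fold without the BALB/c pair), with an unadjusted p of 0.018 and an adjusted p of 0.915 in edgeR. Over the 3 leukocyte populations the log2 fold change was 5.14 ± 1.69 (SE, adjusted p = 0.175) in BALB/c and 3.23 ± 1.81 (adjusted p = 1.0) in C57BL/6. Areg had at most 0.406 CPM in WT libraries and passed the filter through Orpk libraries, so these tests describe it and support nothing. With no filter on low counts the BALB/c value was 5.17 (adjusted p = 0.00205), and over its alternatives the adjusted p ran to 0.163.

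Epgn (chromosome 5, 91027464 to 91035215, plus strand), which encodes the related Egfr ligand epigen and was not among the 9 members, was also counted in Orpk libraries alone, at lower counts. It had 7 counts in BALB/c Orpk and 15 counts in C57BL/6 Orpk neutrophils, and 4 counts in BALB/c Orpk and 8 counts in C57BL/6 Orpk Ly6Chi macrophages, and 0 counts in the other 12 libraries. Epgn, Ereg, Areg and Btc lie in that order on chromosome 5. Btc (91357261 to 91402994, minus strand) did not share the pattern, with 0 counts in all 4 neutrophil libraries.

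**Figure D4:**
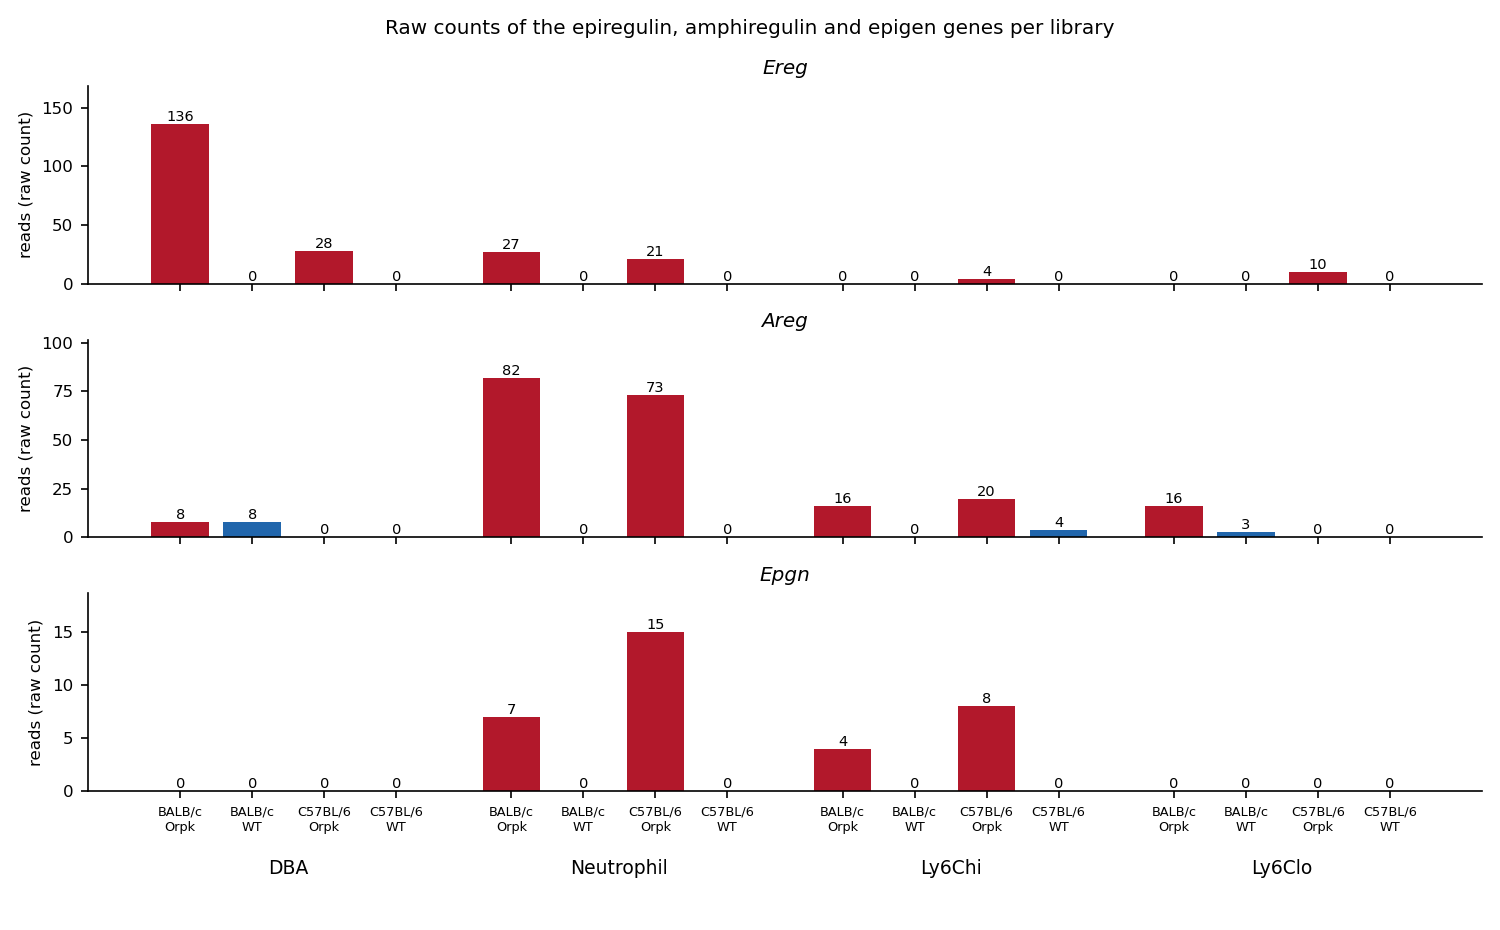
Raw read counts (y axis) of Ereg, Areg and Epgn in the 16 libraries, by population, strain and genotype (x axis), with Orpk in red and WT in blue. The WT libraries hold 0 counts of Ereg and Epgn and at most 8 counts of Areg, and the Orpk neutrophils hold 82 and 73 counts of Areg.

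The promoter windows of Areg and Epgn (250 bases before to 50 bases after the gene start, RefSeq, GRCm38.p6) are shown because both genes were counted in Orpk neutrophils and Ly6Chi macrophages and lie in the same stretch of chromosome 5. The Areg window is chr5:91139349-91139648, plus strand, and the Epgn window is chr5:91027267-91027566, plus strand. Capitals mark matches on either strand to 4 motifs: the cyclic AMP response element (TGACGTCA), the AP-1 site (TGANTCA), the TATA box (TATAAA) and the GC box (GGGCGG).
Areg: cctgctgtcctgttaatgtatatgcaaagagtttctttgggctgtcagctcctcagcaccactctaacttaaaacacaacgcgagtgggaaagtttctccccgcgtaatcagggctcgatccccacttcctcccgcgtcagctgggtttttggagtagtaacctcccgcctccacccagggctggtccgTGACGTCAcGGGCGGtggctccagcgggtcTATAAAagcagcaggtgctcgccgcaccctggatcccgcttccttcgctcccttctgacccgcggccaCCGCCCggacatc
Epgn: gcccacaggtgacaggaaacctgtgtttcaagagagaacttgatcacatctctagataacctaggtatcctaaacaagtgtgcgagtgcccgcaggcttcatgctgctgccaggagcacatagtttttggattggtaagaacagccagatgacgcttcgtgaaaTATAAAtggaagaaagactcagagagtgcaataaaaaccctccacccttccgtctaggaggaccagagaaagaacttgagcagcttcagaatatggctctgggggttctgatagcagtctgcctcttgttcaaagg
The Areg window held TGACGTCA 61 bases upstream of the gene start, GC boxes 52 bases upstream and 37 bases downstream, and TATAAA 31 bases upstream. The Epgn window held TATAAA 86 bases upstream of its RefSeq start and no other match. That RefSeq start lies downstream of the Epgn start of 91027464 given above, so the distance from the latter is shorter. Of 32851 promoters of the same length, 1.79% held TGACGTCA, 7.81% the AP-1 site, 13.6% TATAAA and 35.7% the GC box. A match is a description of these letters. Of the 9 members, 5 (Areg, Tgfa, Btc, Egfr and Erbb2) had a promoter in the table used.

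Hbegf (chromosome 18, 36504927 to 36515805, minus strand), the heparin-binding ligand of Egfr and Erbb4, was highest in DBA-sorted cells and next highest in neutrophils. It had 30.5 CPM in BALB/c Orpk and 31.3 CPM in C57BL/6 Orpk DBA-sorted cells, against 43.9 CPM in BALB/c WT and 36.6 CPM in C57BL/6 WT. Both Orpk libraries lay below both WT libraries, by ratios of 0.696 (0.628 to 0.772) in BALB/c and 0.855 (0.766 to 0.955) in C57BL/6, and the edgeR log2 fold change of -0.37 ± 0.412 did not pass (adjusted p = 1.0). The share of all genes separated in this way was not counted. Hbegf averaged 35.6 ± 6.14 CPM in DBA-sorted cells, 6.81 ± 1.58 CPM in neutrophils, 2.32 ± 1.03 CPM in Ly6Chi and 1.44 ± 0.697 CPM in Ly6Clo macrophages (SD, n = 4 each). The DBA-sorted libraries lay above all the leukocytes, and each neutrophil library (5.4 to 8.88 CPM) lay above each macrophage library (0.648 to 3.82 CPM). The log2 fold change of DBA-sorted cells was 2.25 ± 0.282 over neutrophils (adjusted p = 0.000411), 4.01 ± 0.307 over Ly6Chi (4.67e-05) and 4.78 ± 0.339 over Ly6Clo macrophages (8.1e-05).

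Hbegf also rose in neutrophils relative to macrophages, by a log2 fold change of 1.61 ± 0.364 over Ly6Chi (adjusted p = 0.00726) and 2.33 ± 0.493 over Ly6Clo macrophages (adjusted p = 0.00474). Of 7 members tested against Ly6Chi macrophages 2 passed, Hbegf and Egfr, both higher in neutrophils, where 47.5% of 15931 genes passed, 23.3% higher and 24.1% lower. Of 6 tested against Ly6Clo macrophages 3 passed, Hbegf, Egfr and Nrg1, all higher in neutrophils, where 49.6% of 16631 genes passed, 23.9% higher and 25.7% lower. Without the C57BL/6 WT pair 6 members passed against Ly6Chi macrophages, and without either BALB/c pair 1 did. Hepatocyte marker sums were 2273 to 5058 CPM in neutrophils and 459.6 to 1835 CPM in macrophages, and their part in these differences was not tested.

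Tgfa (chromosome 6, 86195223 to 86275719, plus strand), a ligand of Egfr, had 33.5 CPM in BALB/c Orpk and 35.1 CPM in C57BL/6 Orpk DBA-sorted cells, against 49.6 CPM in BALB/c WT and 37.4 CPM in C57BL/6 WT. In neutrophils it had 2.59 CPM in BALB/c Orpk and 5.14 CPM in C57BL/6 Orpk, against 7.78 CPM in BALB/c WT and 0 counts in C57BL/6 WT. The 8 macrophage libraries had 0.382 to 2.42 CPM, far below the DBA-sorted cells. Tgfa was lower in Orpk in 7 of 8 pairs. The exception was the C57BL/6 neutrophil pair, with 84 counts in Orpk and 0 in WT. Of the lower pairs, the ratio's counting interval left out 1 in BALB/c DBA-sorted cells (0.612 to 0.745) and BALB/c neutrophils (0.212 to 0.505). It included 1 in C57BL/6 DBA-sorted cells (0.843 to 1.04) and in every macrophage pair. In edgeR the log2 fold change of Orpk over WT did not pass, at -0.33 ± 1.01 in DBA-sorted cells (unadjusted p = 0.753). For the mean of the 4 genotype terms it did not pass either, at -0.16 ± 0.613 (unadjusted p = 0.796). Relative to leukocytes, the Tgfa log2 fold change of DBA-sorted cells was 3.54 ± 0.755 over neutrophils (adjusted p = 0.00549), 5.89 ± 0.291 over Ly6Chi (1.02e-05) and 4.53 ± 0.188 over Ly6Clo macrophages (2.76e-05). Tgfa had 0 counts in 1 neutrophil library and 6 to 16 counts in the Ly6Chi libraries. In the comparisons of DBA-sorted cells with these populations Tgfa passed the filter through the DBA-sorted libraries, so those tests describe it and support nothing. Tgfa also passed the filter in neutrophils over Ly6Chi macrophages, where the edgeR value was 2.14 ± 1.16 (adjusted p = 0.159). Between macrophages the value of Ly6Chi over Ly6Clo was -1.40 ± 0.511 (adjusted p = 0.0821).

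Btc, a ligand of Egfr and Erbb4, was the scarcest of the 6 ligand members with reads in every DBA-sorted library. It had 3.76 CPM in BALB/c Orpk and 2.0 CPM in C57BL/6 Orpk DBA-sorted cells, against 2.38 CPM in BALB/c WT and 4.99 CPM in C57BL/6 WT. The Orpk library was the higher in BALB/c, with a ratio of 1.58 (1.09 to 2.31), and the lower in C57BL/6, with a ratio of 0.4 (0.272 to 0.582). The leukocytes held 10 Btc counts in 12 libraries, of which 9 were at 0. DBA-sorted cells held 252 counts, and Btc could pass the filter only through them, so its levels are given with no test. Its pooled level in DBA-sorted cells was 55.5-fold higher than a floor of 3 counts in neutrophils (0 counts). It was 32.1 times that of Ly6Chi macrophages (7 counts, 95% counting interval 15.3 to 80.5) and 98.6 times that of Ly6Clo macrophages (3 counts, 33.3 to 481.2).

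Among Egfr, Erbb2 and Erbb3, Erbb2 (chromosome 11, 98412470 to 98437716, plus strand) had the largest fold changes between DBA-sorted cells and leukocytes. It had 68.3 CPM in BALB/c Orpk and 58.2 CPM in C57BL/6 Orpk DBA-sorted cells, against 81.2 CPM in BALB/c WT and 82.2 CPM in C57BL/6 WT. Both Orpk libraries lay below both WT libraries, with ratios of 0.841 (0.783 to 0.904) in BALB/c and 0.708 (0.655 to 0.764) in C57BL/6, and the edgeR log2 fold change of -0.37 ± 1.11 did not pass (adjusted p = 1.0). The share of all genes separated in this way was not counted. The 12 leukocyte libraries ran from 0.0637 CPM to 7.78 CPM with a median of 1.21 CPM. Erbb2 rose in DBA-sorted cells by a log2 fold change of 4.66 ± 0.669 over neutrophils (adjusted p = 0.000787), 6.41 ± 0.601 over Ly6Chi (0.000122) and 6.31 ± 0.552 over Ly6Clo macrophages (0.000179). The lowest library held 2 counts of Erbb2 in neutrophils, 1 in Ly6Chi and 2 in Ly6Clo macrophages. In these comparisons Erbb2 thus passed the filter on low counts through the DBA-sorted libraries, so these tests describe it and support nothing. Erbb2 also passed the filter between leukocyte populations, where no edgeR test passed. The log2 fold change was 1.70 ± 0.973 for neutrophils over Ly6Chi macrophages (adjusted p = 0.178) and 1.56 ± 0.916 over Ly6Clo macrophages (0.184). For Ly6Chi over Ly6Clo macrophages it was -0.27 ± 0.598 (0.799).

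Erbb3 (chromosome 10, 128567523 to 128589652, minus strand), the receptor of neuregulins, was present in every library and in leukocytes it had a narrow range. It had 39.0 CPM in BALB/c Orpk and 40.4 CPM in C57BL/6 Orpk DBA-sorted cells, against 26.8 CPM in BALB/c WT and 67.1 CPM in C57BL/6 WT, with ratios of 1.45 (1.3 to 1.62) in BALB/c and 0.602 (0.551 to 0.658) in C57BL/6. The Orpk libraries were nearly equal, and the WT libraries were the lowest and the highest of the 4. The 12 leukocyte libraries ran from 6.02 CPM to 15.0 CPM with a median of 11.2 CPM, and no pair of leukocyte populations passed the test, with log2 fold changes of -0.32 ± 0.288 for neutrophils over Ly6Chi, -0.07 ± 0.341 for neutrophils over Ly6Clo and 0.26 ± 0.254 for Ly6Chi over Ly6Clo macrophages (adjusted p = 0.38, 0.875 and 0.525). Erbb3 rose in DBA-sorted cells by a log2 fold change of 1.95 ± 0.394 over neutrophils (adjusted p = 0.00421), 1.81 ± 0.229 over Ly6Chi (0.000523) and 2.10 ± 0.384 over Ly6Clo macrophages (0.0045).

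Egfr (chromosome 11, 16752203 to 16918158, plus strand), the receptor of the Areg, Ereg, Hbegf, Tgfa and Btc ligands, separated the populations less. It had 33.7 CPM in BALB/c Orpk and 28.7 CPM in C57BL/6 Orpk DBA-sorted cells, against 21.5 CPM in BALB/c WT and 42.2 CPM in C57BL/6 WT. The genotype ratio was 1.57 (1.39 to 1.77) in BALB/c and 0.682 (0.611 to 0.76) in C57BL/6. Nrg1, Btc, Egfr and Erbb3 thus each had a ratio above 1 in BALB/c and below 1 in C57BL/6, as did the cholangiocyte marker sums of these libraries. The share of all genes with this order was not counted, so it is a description. The log2 fold change of DBA-sorted cells was 2.32 ± 0.537 over Ly6Chi (adjusted p = 0.00932), 2.82 ± 0.569 over Ly6Clo macrophages (0.00685) and 0.86 ± 0.508 over neutrophils (0.187). The neutrophil comparison turned on 1 pair, since the BALB/c WT neutrophils had 43.9 CPM, above every DBA-sorted library, and without the BALB/c WT pair the value was 1.49 (adjusted p = 0.00453).

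Egfr rose in neutrophils relative to macrophages, by a log2 fold change of 1.37 ± 0.392 over Ly6Chi (adjusted p = 0.0198) and 1.80 ± 0.331 over Ly6Clo macrophages (adjusted p = 0.00238). Over Ly6Chi macrophages the adjusted p was 0.0578 without the BALB/c Orpk pair, 0.0869 without the BALB/c WT pair and 0.116 without the block, and over Ly6Clo macrophages it was 0.0639 without the block. Hepatocyte marker sums were 2273 to 5058 CPM in neutrophils and 459.6 to 1835 CPM in the macrophages, without overlap. Endothelial sums were 593.3 to 2955 CPM in neutrophils and 132.8 to 690.6 CPM in the macrophages, with overlap, and the part of both sums in the Egfr difference was not tested.

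Within BALB/c, Egfr fell in Orpk leukocytes. In Ly6Chi macrophages it had 1.72 CPM in BALB/c Orpk against 14.1 CPM in BALB/c WT, in Ly6Clo macrophages 1.89 CPM in Orpk against 13.2 CPM in WT, and in neutrophils 11.7 CPM in Orpk against 43.9 CPM in WT. The Orpk library was the lower in all 3 BALB/c pairs, by ratios of 0.122, 0.143 and 0.266. The log2 fold change of Orpk over WT was -2.59 ± 0.33 (SE, edgeR adjusted p = 0.00325), and Egfr was the only 1 of 7 tested members to pass, where 3.49% of 17524 genes passed and 1.99% were lower. This p-value measures the spread between leukocyte populations, which may share mice, and not between pools of a genotype. Leaving out each population in turn gave -2.91 to -2.38, with adjusted p from 0.00182 to 0.047. The share of mitochondrial counts moved with Egfr, at 2.98% in Orpk and 6.66% in WT Ly6Chi macrophages, 2.64% in Orpk and 4.78% in WT Ly6Clo macrophages, and 3.15% in Orpk and 11.05% in WT neutrophils of BALB/c. It was also lower in Orpk in the 3 C57BL/6 pairs, at 5.22 to 5.97% in Orpk and 7.67 to 9.56% in WT, and its part was not tested.

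In C57BL/6 leukocytes the Egfr difference was smaller and did not pass. Egfr had 5.76 CPM in C57BL/6 Orpk and 9.24 CPM in C57BL/6 WT Ly6Chi macrophages, 2.72 CPM in Orpk and 6.15 CPM in WT Ly6Clo macrophages, and 11.7 CPM in Orpk and 10.2 CPM in WT neutrophils. The log2 fold change was -0.53 ± 0.316 (adjusted p = 1.0), and 0 of 7 members passed in edgeR or DESeq2, where 891 genes had an unadjusted p under 0.05 and 0.0457% of 17524 genes passed in edgeR. The test of the difference between strains gave -2.05 ± 0.451 for Egfr (adjusted p = 0.0677), and 0 of 7 members passed, where 1700 genes had an unadjusted p under 0.05 and 1.27% passed. DESeq2 called 2 members, Egfr and Erbb2. With no filter on low counts that adjusted p was 0.000326 and with DESeq2 it was 0.00534, and leaving out each population in turn gave 0.0681 to 0.355.

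Erbb2 had the same sign as Egfr in BALB/c and the opposite sign in C57BL/6. It had 1 count (0.0637 CPM) in BALB/c Orpk against 14 counts (0.731 CPM) in BALB/c WT Ly6Chi macrophages, 2 counts (0.0861 CPM) in Orpk against 32 counts (1.62 CPM) in WT Ly6Clo macrophages, and 15 counts (1.44 CPM) in Orpk against 140 counts (7.78 CPM) in WT neutrophils. In C57BL/6 it had 53 counts (2.18 CPM) in Orpk against 10 counts (0.84 CPM) in WT Ly6Chi macrophages, 41 counts (1.27 CPM) in Orpk against 21 counts (1.15 CPM) in WT Ly6Clo macrophages, and 60 counts (3.67 CPM) in Orpk against 2 counts (0.251 CPM) in WT neutrophils. Erbb2 was thus lower in Orpk in all 3 BALB/c pairs and higher in Orpk in all 3 C57BL/6 pairs. The log2 fold change was -3.21 ± 0.836 (adjusted p = 0.0735) in BALB/c and 1.55 ± 0.775 (adjusted p = 1.0) in C57BL/6, and their difference of -4.76 ± 1.14 did not pass in edgeR (adjusted p = 0.0963). With no filter on low counts the difference had an adjusted p of 0.00296 and with DESeq2 of 0.00318, and over all its alternatives the adjusted p ran to 0.395.

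Markers of other liver cells moved with Erbb2 in the leukocyte libraries of both strains, and with Egfr in BALB/c. In C57BL/6 macrophages Egfr went the other way, with 5.76 CPM in Orpk and 9.24 CPM in WT Ly6Chi cells. In C57BL/6 Ly6Clo macrophages it had 2.72 CPM in Orpk and 6.15 CPM in WT. In BALB/c the 10 hepatocyte markers summed to 585.6 CPM in Orpk and 1761 CPM in WT Ly6Chi macrophages, 459.6 CPM in Orpk and 1579 CPM in WT Ly6Clo macrophages, and 2516 CPM in Orpk and 5058 CPM in WT neutrophils. In C57BL/6 the hepatocyte sums were 1835 CPM in Orpk and 1595 CPM in WT Ly6Chi macrophages, 1304 CPM in Orpk and 887.0 CPM in WT Ly6Clo macrophages, and 3382 CPM in Orpk and 2273 CPM in WT neutrophils. The sums were lower in Orpk in each BALB/c pair and higher in Orpk in each C57BL/6 pair, as for Erbb2, and the sums of 10 endothelial markers had the same order in all 6 pairs. In BALB/c leukocytes 9 of 10 hepatocyte markers fell (median log2 fold change -1.32) and 10 of 10 endothelial markers fell (median -1.90), and in C57BL/6 0 of 10 passed in each list, with medians of 0.60 and 0.98. The medians of all genes tested were -0.01 in BALB/c and 0.02 in C57BL/6. Erbb2 had 58.2 to 82.2 CPM and Egfr 21.5 to 42.2 CPM in the DBA-sorted libraries, where the endothelial sums were 13640 to 20805 CPM. The part of the marker sums in the Egfr and Erbb2 values was not tested.

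**Figure D5:**
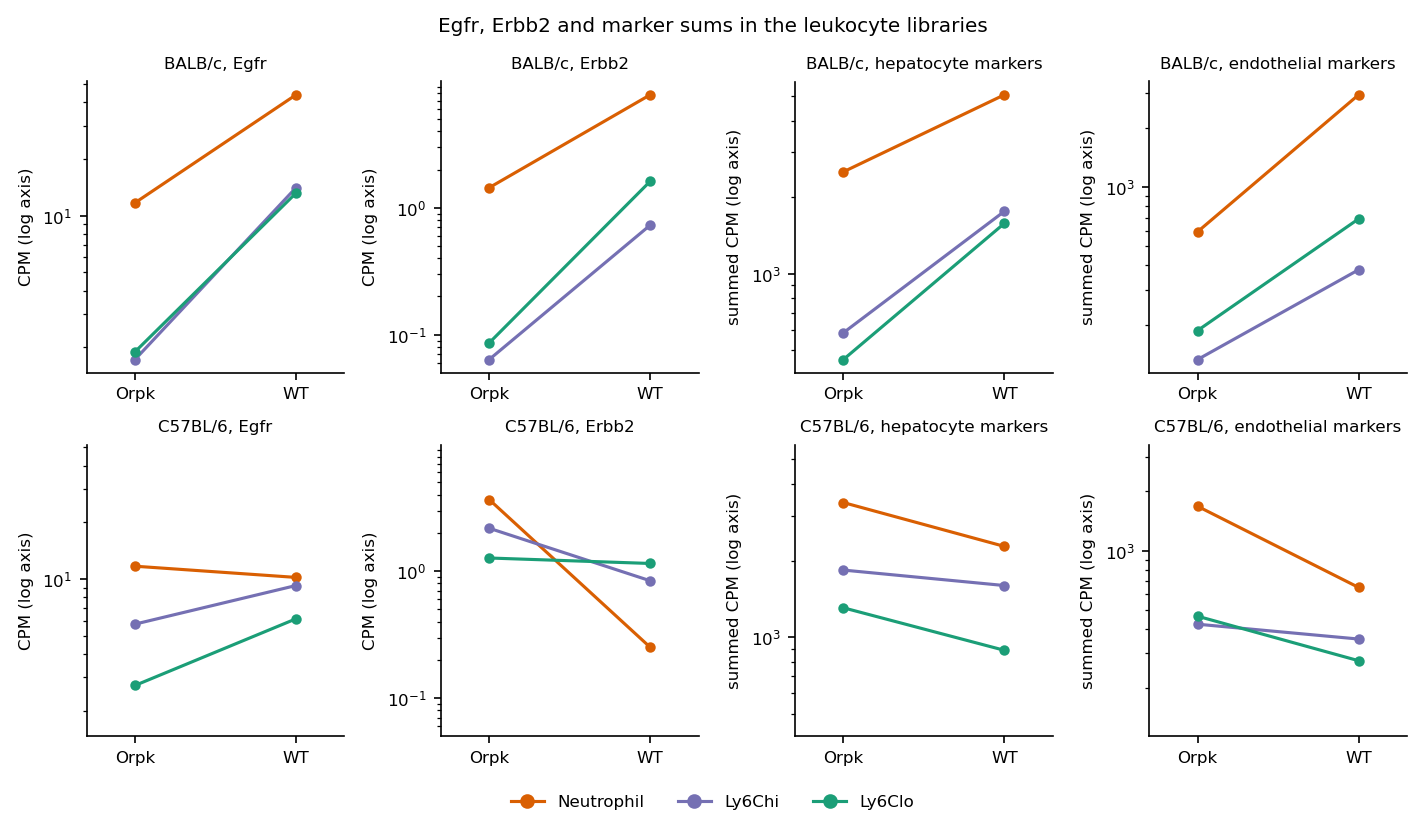
Egfr and Erbb2 (CPM) and the summed CPM of 10 hepatocyte and 10 sinusoidal endothelial markers (y axes, log scale) in Orpk and WT leukocytes of BALB/c (top) and C57BL/6 (bottom), with 1 line per population joining the libraries of a pair. All 4 quantities are lower in Orpk in the BALB/c pairs, and in C57BL/6 Erbb2 and both sums are higher in Orpk, while Egfr is lower in Orpk in 2 of 3 pairs.

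The promoter windows of Egfr (chr11:16751953-16752252, plus strand) and Erbb2 (chr11:98412234-98412533, plus strand) are shown because these receptors were both lower in Orpk in the 3 BALB/c leukocyte pairs (RefSeq, GRCm38.p6). Capitals mark the same 4 motifs.
Egfr: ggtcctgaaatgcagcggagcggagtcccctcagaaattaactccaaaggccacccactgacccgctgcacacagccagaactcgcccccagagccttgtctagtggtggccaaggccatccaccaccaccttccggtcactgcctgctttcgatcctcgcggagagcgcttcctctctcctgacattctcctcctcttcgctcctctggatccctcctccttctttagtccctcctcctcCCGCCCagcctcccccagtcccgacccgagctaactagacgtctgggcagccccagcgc
Erbb2: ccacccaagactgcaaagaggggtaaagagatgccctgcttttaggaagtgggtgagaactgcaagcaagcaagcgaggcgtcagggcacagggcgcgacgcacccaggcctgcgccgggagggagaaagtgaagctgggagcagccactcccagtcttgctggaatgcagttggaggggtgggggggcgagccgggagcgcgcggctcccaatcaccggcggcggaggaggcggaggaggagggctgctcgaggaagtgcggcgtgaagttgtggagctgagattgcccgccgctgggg
The Egfr window held 1 GC box, read on the other strand, 9 bases upstream of the gene start, and the Erbb2 window held none of the 4 motifs, so these windows shared no match.

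Within single populations, no member passed the edgeR test of genotype or of strain (Nrg1 was not tested in DBA-sorted cells, whose values chose it). For genotype, 0% of 19183 genes passed in Ly6Chi macrophages (407 at an unadjusted p under 0.05, 3 called by DESeq2) and 0% in Ly6Clo macrophages (338 at an unadjusted p under 0.05, 9 called by DESeq2). Egfr had log2 fold changes of Orpk over WT of -1.80 ± 0.772 in Ly6Chi and -1.98 ± 0.755 in Ly6Clo macrophages (adjusted p = 1.0 for each). For BALB/c over C57BL/6, the share of genes that passed was 0.297% in DBA-sorted cells, 1.40% in neutrophils, 0.334% in Ly6Chi and 0.255% in Ly6Clo macrophages, and 0 members, and DESeq2 called 0 members as well. Hbegf in Ly6Clo macrophages had a strain value of 1.25 ± 0.469 (unadjusted p = 0.0301, adjusted p = 0.516), with 2.20 CPM and 1.82 CPM in the BALB/c libraries and 0.648 CPM and 1.10 CPM in the C57BL/6 libraries. Those BALB/c libraries lay above both C57BL/6 libraries, and the share of all genes separated in this way was not counted.

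The other genes of the family were mostly low. Erbb4, the remaining receptor, had 8.42 CPM in BALB/c Orpk and 13.7 CPM in C57BL/6 Orpk DBA-sorted cells, against 16.4 CPM in BALB/c WT and 17.4 CPM in C57BL/6 WT. The 12 leukocyte libraries held 51 Erbb4 counts in all, with 0 to 1.0 CPM each, so its pooled level in DBA-sorted cells was 58.5 times theirs. By population the pooled ratio was 36.2 (23.3 to 59.5) over neutrophils, 34.8 (24.0 to 52.7) over Ly6Chi and 428.3 (146.2 to 2080) over Ly6Clo macrophages, which had 3 counts. In DBA-sorted cells Erbb4 was lower in Orpk in both strains, by ratios of 0.513 (0.424 to 0.618) and 0.786 (0.667 to 0.927), with a genotype value of -0.65 ± 0.876 (adjusted p = 1.0). Egf, the founding ligand, had 0.571 CPM in BALB/c Orpk and 1.87 CPM in C57BL/6 Orpk DBA-sorted cells, against 4.06 CPM in BALB/c WT and 1.75 CPM in C57BL/6 WT. Nrg2 and Nrg4 stayed at or under 3.29 CPM in all 16 libraries, and Nrg3 had 3 counts in 1 library. None of Egf, Nrg2 and Nrg4 passed in a population comparison.

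Genes that act before and after the receptors were counted in lists chosen for the pathway. Of 15 negative regulators of ErbB and Ras signalling, 13 passed in DBA-sorted cells over Ly6Chi macrophages, where 51.4% of all genes passed (9 higher, 4 lower; median log2 fold change 1.39), 11 over Ly6Clo macrophages, where 46.7% of all genes passed (8 higher, 3 lower; median 0.62) and 11 over neutrophils, where 54.0% of all genes passed (8 higher, 3 lower; median 1.05). The medians of all genes tested were -0.02, -0.07 and 0.15. Spry4 and Spry1, which encode Sprouty inhibitors of the Ras pathway, rose by 6.25 ± 0.309 (adjusted p = 1.02e-05) and 5.12 ± 0.251 (1.02e-05) over Ly6Chi macrophages, while Cbl, the ubiquitin ligase that marks active Egfr for degradation, and Sh3kbp1, its partner in receptor uptake, fell by 1.98 ± 0.156 (5.37e-05) and 2.74 ± 0.188 (3e-05). The list thus did not move as 1 group.

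Of 10 genes for the release of ligands, 8 passed in DBA-sorted cells over each leukocyte population, with 5 higher and 3 lower over each macrophage population and 4 higher and 4 lower over neutrophils. The same 51.4% (Ly6Chi), 46.7% (Ly6Clo) and 54.0% (neutrophils) of all genes stand beside these and the next counts. Timp3, an inhibitor of Adam17, rose by 5.70 ± 0.471 over Ly6Chi macrophages (edgeR adjusted p = 6.57e-05) and 3.65 ± 0.392 over neutrophils (0.000193), and Rhbdf1, a rhomboid protein that guides Adam17 to the cell surface, by 4.90 ± 0.36 (3.91e-05) and 3.74 ± 0.471 (0.000413). Rhbdf2, which serves Adam17 in immune cells, fell by 3.01 ± 0.182 in DBA-sorted cells relative to neutrophils (1.8e-05). Of 25 adaptors and effectors, 15 passed over Ly6Chi macrophages (5 higher, 10 lower), 15 over Ly6Clo macrophages (7 higher, 8 lower) and 18 over neutrophils (5 higher, 13 lower). Plcg1, a phospholipase that binds activated receptors, rose by 3.68 ± 0.15 over Ly6Chi macrophages (7.69e-06), and the adaptor Grb2 fell by 1.77 ± 0.132 (4.18e-05). Of 12 transcripts induced by the Ras to ERK route, 7 passed over Ly6Chi macrophages (5 higher, 2 lower), 6 over Ly6Clo macrophages (4 higher, 2 lower) and 10 over neutrophils (3 higher, 7 lower). Egr1, an immediate early factor, was 2.68 ± 0.296 higher on the log2 scale than in Ly6Chi macrophages (0.000269), and Fos was lower than in neutrophils by -3.37 ± 0.309 (9.91e-05).

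By genotype, 2 of the 12 induced transcripts rose in BALB/c Orpk leukocytes, where 3.49% of 17524 genes passed in either direction, Ier3 by 2.29 ± 0.31 (edgeR adjusted p = 0.00414) and Phlda1 by 1.71 ± 0.397 (0.0451), with a list median of 0.60 where the median of all genes was -0.01. Ier3, an early response gene, had 162.6 CPM in BALB/c Orpk against 16.2 CPM in BALB/c WT Ly6Chi macrophages, 62.3 CPM in Orpk against 13.7 CPM in WT Ly6Clo macrophages, and 693.2 CPM in Orpk against 240.3 CPM in WT neutrophils. Ier3 was higher in Orpk in all 3 BALB/c pairs. It was also higher in Orpk in each C57BL/6 leukocyte pair. The C57BL/6 values in Orpk and WT were 44.2 and 21.4 CPM in Ly6Chi macrophages, 21.3 and 15.2 CPM in Ly6Clo macrophages, and 247.6 and 196.6 CPM in neutrophils. Phlda1 was likewise higher in Orpk in each leukocyte pair of both strains. In the test of the difference between strains 0 of the 12 induced transcripts passed. Of the other lists Timp3 fell by 2.14 ± 0.298 (adjusted p = 0.0047) and Spry4 by 1.87 ± 0.39 (0.0282), and the test of the difference between strains gave -2.55 ± 0.406 for Timp3 (0.0151) and -2.81 ± 0.545 for Spry4 (0.0393). Timp3 and Spry4 had 191.8 to 301.5 CPM and 147.8 to 222.0 CPM in the DBA-sorted libraries, against at most 39.0 CPM and 22.9 CPM in leukocytes, and they moved with the endothelial marker sums; the part of those sums was not tested. In C57BL/6 leukocytes 0 genes of these lists passed for genotype in the edgeR test.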

How the data were processed

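RNA sequencing of 16 libraries was deposited as a table of raw counts per Ensembl gene, made by the authors with STAR and HTSeq-count 0.9.1 after bcl2fastq 2.18.0.12 on GRCm38.p4, per the submitters' processing notes. For STAR's version, the strand setting and the gene annotation, the entry is "not given in the sources used here". Of that table, the 5 summary lines stayed out of all totals (29.08 to 45.18% of reads had no feature, 2.23 to 3.95% were ambiguous and 7.02 to 11.18% did not map uniquely). Reads in genes made up 44.75 to 57.28% of each library.

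Counts were tested with edgeR 4.0.16 in R 4.3.3 (filterByExpr, TMM, quasi-likelihood F test, Benjamini-Hochberg adjustment over all genes tested, threshold 0.05). The SE of an edgeR log2 fold change is its absolute value divided by the square root of F. It is an approximation and not a fitted standard error, and it is least reliable at low counts or near a value of 0. Population comparisons used the 8 libraries of both populations with strain and genotype as a block. Genotype and strain within a population used all 16 libraries, and genotype in leukocytes used 12. Alternatives were RLE size factors, no filter, DESeq2 1.42.0, no block, other sets of libraries, and each library, pair or population left out. The scripts were tested on simulated data. Ratios of 2 libraries have exact 95% binomial counting intervals. Tables and figures used Python 3.11.15, numpy 2.4.6, pandas 2.3.3, scipy 1.17.1 and matplotlib 3.10.9.

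The members, marker lists and pathway lists were chosen with earlier results of these data known. All 9 members are named, with at most 4 genes per pathway list and comparison in order of p, and the 5 genes most like Nrg1 among those with at least 5 CPM in 1 library.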

Additional observations from a re-analysis of the deposited data

Results flagged for a closer look

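In 4 of 35 groups of 4 libraries, 1 library stood apart from the other 3 by Dixon's criterion at the 95% level, which chance gives in about 1 in 20 groups. Egfr in BALB/c WT neutrophils was at 43.9 CPM. The other 3 were single libraries with reads where the rest of the population had 0 counts: Ereg at 0.164 CPM in C57BL/6 Orpk Ly6Chi macrophages, Ereg at 0.309 CPM in C57BL/6 Orpk Ly6Clo macrophages, and Btc at 0.152 CPM in BALB/c WT Ly6Clo macrophages.

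In DBA-sorted cells 4 members had a ratio of Orpk over WT above 1 in BALB/c and below 1 in C57BL/6, with counting intervals that left out 1. The ratios in BALB/c and C57BL/6 were 68.7 and 0.427 for Nrg1, 1.58 and 0.4 for Btc, 1.57 and 0.682 for Egfr, and 1.45 and 0.602 for Erbb3. Each rests on 1 library per group, and the difference between strains was not tested. The share of all genes with this order was not counted. In leukocytes Erbb2 was lower in Orpk in every BALB/c pair and higher in Orpk in every C57BL/6 pair, with a log2 difference of -4.76 that did not pass in edgeR (adjusted p = 0.0963).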

How the results depend on the processing

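Of the values of single members under the alternatives run, 273 kept their direction and their side of the threshold, 11 came to pass it, 10 no longer passed and 2 changed sign; the cause was not tested. The sign changes were Nrg1 in C57BL/6 leukocytes without Ly6Chi (-0.6; range over populations left out -0.6 to 0.7) and its strain difference without Ly6Clo (-0.38; range -0.38 to 0.62). With no filter on low counts, genes called numbered 93, 124 and 103 for strain in DBA-sorted, Ly6Chi and Ly6Clo cells, 1455 (3 members) in BALB/c leukocytes, 312 in C57BL/6 leukocytes and 815 (2 members) for their difference, and 4 members passed in neutrophils over Ly6Chi. DESeq2 called 81, 3, 9 and 18 genes for genotype in DBA-sorted, Ly6Chi, Ly6Clo and neutrophil cells, 223 over the 4 populations, 450, 452, 357 and 838 for strain, 1178 (2 members) in BALB/c leukocytes, 101 in C57BL/6 leukocytes and 576 (2 members) for the difference. The 4 libraries of a population alone gave 1, 1 and 5 genes for genotype in DBA-sorted, Ly6Chi and neutrophil cells, and 25, 604 (1 member), 193 and 142 for strain. Without the block, 1860 genes and 0 members passed between macrophages, and 1 member in neutrophils over each macrophage population; with all 16 libraries, 1467 genes and 0 members passed between macrophages. Leaving out libraries gave 0 to 16 genes for genotype in DBA-sorted cells, 24 to 35, 0 to 0, 0 to 5 and 36 to 63 for strain (0 to 1 member in neutrophils), 1 to 6 members in neutrophils over Ly6Chi, 155 (without Ly6Chi) to 1041 (without neutrophils) genes in BALB/c leukocytes, 8 to 18 in C57BL/6 leukocytes and 104 to 265 for the difference. A pseudocount of 5 CPM lowered the log2 Nrg1 ratio in BALB/c DBA-sorted cells to 3.31. No paired analysis was possible because the labels number no replicates, apart from the strain and genotype block of the population comparisons. With 1 library per group, counts under 3 set the depth limit for Ereg, Areg, Epgn and Btc.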
